A study of Mus musculus with 50 samples.

Results

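The genes followed here encode drug-metabolizing enzymes of the mouse colon: cytochromes P450 of the Cyp2 and Cyp3 families, UDP-glucuronosyltransferases of the Ugt1 and Ugt2 families, sulfotransferases (Sult), and glutathione S-transferases of the alpha (Gsta), mu (Gstm), pi (Gstp), theta (Gstt), omega (Gsto) and kappa (Gstk) classes. A gene was a member when its symbol belonged to one of these families, was not marked as a pseudogene and had at least 500 counts summed over all 50 mice. That left 58 genes of 121 symbols with a matching name, in a table of 56691 genes. They comprised 21 Cyp2, 3 Cyp3, 3 Ugt1, 4 Ugt2, 7 Sult, 4 Gsta, 7 Gstm, 3 Gstp, 3 Gstt, 2 Gsto genes and 1 Gstk gene. The summed count alone set the threshold. Just inside it lay Gsta2 with 507 counts and Sult5a1 with 590, and just outside it Cyp2c23 with 492 and Gsta5 with 456. All 58 members also passed the filter on low counts that left 17928 genes for testing. Because the filter favours genes that are high in some group, counts over the members are given as a description, each beside the share of all tested genes that was called the same way.

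Colon RNA came from BALB/c mice in 5 groups of 10: sham mice, and mice with colitis from TNBS (2,4,6-trinitrobenzene sulfonic acid, a hapten placed in the colon) that received vehicle or the compound A1007 at 10, 30 or 90 mpk, the dose unit of the labels. The series title calls A1007 (YUQ-A1007) an orally active agonist of the aryl hydrocarbon receptor (AhR), and no genotype other than the wild-type strain is labelled. The labels used here do not give age, sex, the sham procedure, time of sampling or the length of dosing, and all mice carry the same batch label. Whole tissue was sampled, so fewer cells of a type and less RNA per cell cannot be told apart.

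Drug metabolism runs in steps. Cytochromes P450 of the Cyp2 and Cyp3 families oxidize drugs, steroids, fatty acids and plant compounds, and the transferases then attach glucuronic acid (Ugt), sulfate (Sult) or glutathione (Gst), which makes the products easier to excrete. In the colon these enzymes sit mainly in the surface epithelium. Their genes are classic targets of the ligand-activated AhR, of the nuclear receptors PXR (Nr1i2) and CAR (Nr1i3), and of the oxidative stress factor NRF2 (Nfe2l2).

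Each library held between 14373337 and 20446967 counts on genes, and no pair of libraries was identical. None of the 12 general epithelial and 16 absorptive colonocyte genes listed was at 0 in all mice of any group. The same held for the acinar, adipocyte and smooth muscle genes listed and present, so this count cannot check the tissue label. Several libraries stood apart. Transcripts of pancreatic acinar enzymes other than Cela1 exceeded 100 CPM (counts scaled to library size) in 9 mice, among them vehicle replicates 2, 5, 6 and 9. Xist was low in 10 mpk replicate 6 and 30 mpk replicate 1. Hoxd13, a homeobox gene of the hindgut, was near 0 in 10 mpk replicates 3 and 8 and more than 2 times the median of all mice in replicate 10 of both the 10 and the 30 mpk group. Within its own group vehicle replicate 9 had the lowest value for 23 of the 58 members, 30 mpk replicate 10 the lowest for 22, and 90 mpk replicate 8 the highest for 23.

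Transcripts of many P450s, Ugts and sulfotransferases and of some Gsts were lower in colitis than in sham, and at 30 and 90 mpk of A1007 some of them were higher than in vehicle and others were not. In TNBS vehicle mice 31 members fell and 2 rose against sham (edgeR quasi-likelihood test, Benjamini-Hochberg adjusted p under 0.05), a total of 33 of 58, while 31.7% of all tested genes were called. The share called lower was 13.3% of all genes, so the members' falls were more frequent than in the whole table and their rises, against 18.4%, less frequent, which is a description and was not tested. The median member changed by -0.53 on the log2 scale and the median of all genes by 0.02. The 58 members together made up 0.480% to 0.708% of a sham library's counts and 0.223% to 0.584% of a vehicle library's.

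Against vehicle, 3 members rose and none fell at 10 mpk, where 5.79% of all genes were called (2.73% higher, 3.06% lower). At 30 mpk 18 rose and 2 fell, with 31.4% of all genes called (13.3% higher, 18.1% lower). At 90 mpk 9 rose and 3 fell, with 18.6% of all genes called (6.91% higher, 11.7% lower). Medians of the members were 0.03, 0.21 and 0.15 at the 3 doses. All 3 comparisons use the same vehicle mice, which also enter the comparison with sham, so their values are set side by side and are not independent. These counts changed without the 9 mice over 100 CPM of acinar transcripts other than Cela1, which come from the vehicle group and all 3 dose groups. Then 1 member was called at 90 mpk (577 of 17928 genes), 17 at 30 mpk (15 up, 2 down; 4937 genes) and none at 10 mpk (33 genes). In vehicle against sham 24 members were then lower (4127 genes called), 22 of them among the 33 called with all mice.

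Compared with sham, 26 members differed at 10 mpk (2 up, 24 down). Of all genes 36.4% did (21.2% higher, 15.2% lower). At 30 mpk 30 members differed (6 up, 24 down) and 59.0% of all genes (31.3% higher, 27.7% lower). At 90 mpk 33 members differed (1 up, 32 down) and 45.3% of all genes (23.7% higher, 21.6% lower). The 90 mpk count was 16 with all 50 mice in 1 fit (4399 of 17928 genes called) and 14 without the mice over 100 CPM of acinar transcripts with Cela1 included (4504 genes). The latter setting lost 21 of the 33 calls, among them those of Cyp2d13, Cyp2d26, Cyp2d34, Cyp3a13, Gsta1, Ugt1a1 and Ugt1a6a. It left out 90 mpk replicates 1, 2, 4, 6, 7 and 10 and no sham mouse. Replicates 1, 6, 7 and 10 of these passed 100 CPM only with Cela1 counted, with 3.872 to 7.638 CPM of the other acinar genes. The part of the smaller number of mice in the lost calls was not tested. All 10 vehicle values lay below all 10 sham values for 8 members: Cyp2c68, Cyp2c69, Cyp2d13, Cyp2s1, Gstm1, Sult1c2, Ugt2b34 and Ugt2b35. Of all tested genes 1.08% were separated in this way, and 2.99% lay wholly above sham, which no member did. Wholly below sham were 2 members at 10 mpk (0.725% of all genes), 7 at 30 mpk (4.81%) and 3 at 90 mpk (1.43%). Wholly above sham was Gstm5 at 30 mpk (5.08% of all genes) and no member at 10 mpk (2.12%) or 90 mpk (1.96%). No dose group was separated from vehicle for any member. Among all genes 0.0167% lay wholly below vehicle and 0.0% wholly above it at 10 mpk, 0.563% and 0.413% at 30 mpk, and 0.312% and 0.446% at 90 mpk. When quantile normalization with limma replaced TMM with edgeR, 2382 of 5930 genes called in vehicle were higher than sham in place of 3290 of 5677. At 30 mpk against vehicle that split was 3196 of 5586 in place of 2380 of 5622, and at 90 mpk 1692 of 2967 in place of 1239 of 3328, and at 10 mpk against sham 2789 of 6510 in place of 3796 of 6527. For the members this setting gave 20 higher and none lower at 30 mpk and 13 higher and 1 lower at 90 mpk. It changed the test along with the normalization. Limma on log2(FPKM + 0.5), without quantile normalization, called 2905 of 5200 genes higher in vehicle than in sham. At 90 mpk against vehicle it called 1610 of 2892 higher. The part of normalization alone was not tested.

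**Figure D1:**
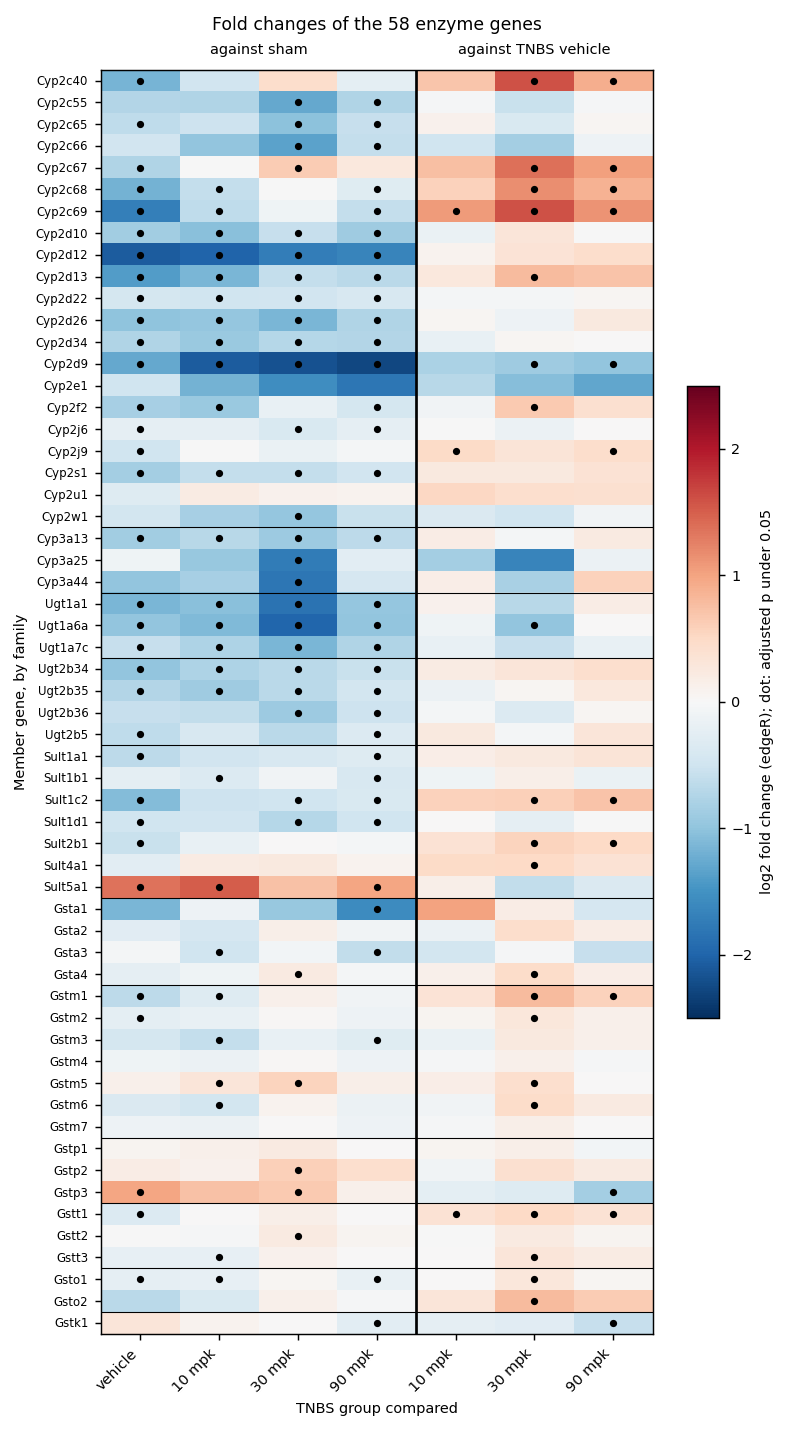
Log2 fold change of each of the 58 members (rows, grouped by family) in 7 comparisons (columns, against sham on the left and against vehicle on the right), with a dot where adjusted p was under 0.05. Most Cyp2, Ugt and Sult rows are lower than sham in each TNBS group. The rises called against vehicle at 30 mpk lie in Cyp2c40, Cyp2c67 to Cyp2c69, Cyp2d13, Cyp2f2, Sult1c2, Sult2b1, Sult4a1 and the Gst rows.

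The Cyp2c genes, P450s that oxidize fatty acids and many drugs, divided by position. In the deposited GRCm39 coordinates Cyp2c55 (chr19:38995463-39031137), Cyp2c65 (chr19:39049459-39082388) and Cyp2c66 (chr19:39102342-39175516) lie side by side on the plus strand. Cyp2c67 (chr19:39597286-39637495), Cyp2c68 (chr19:39677278-39729498), Cyp2c40 (chr19:39755515-39801258) and Cyp2c69 (chr19:39831258-39875243) follow on the minus strand. In vehicle all 4 minus-strand genes and Cyp2c65 fell, and at 30 mpk of A1007 all 4 minus-strand genes rose against vehicle, while the 3 plus-strand genes passed no test against vehicle and fell against sham. The difference between the sets was not tested. Promoter sequences are shown because they let a reader compare the 2 sets. They are the 250 bases before the transcript start from RefSeq (GRCm38.p6), 5′ to 3′ on the gene's own strand. Capitals mark GCGTG, the core of the AhR response element, searched on both strands (CACGC is its reverse complement).
Cyp2c55, chr19:39006769-39007018, plus strand: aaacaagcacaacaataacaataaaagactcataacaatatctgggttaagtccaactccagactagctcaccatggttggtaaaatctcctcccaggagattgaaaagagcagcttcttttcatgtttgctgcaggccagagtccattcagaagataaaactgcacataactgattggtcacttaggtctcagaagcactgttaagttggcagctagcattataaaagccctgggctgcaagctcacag
Cyp2c65, chr19:39060756-39061005, plus strand: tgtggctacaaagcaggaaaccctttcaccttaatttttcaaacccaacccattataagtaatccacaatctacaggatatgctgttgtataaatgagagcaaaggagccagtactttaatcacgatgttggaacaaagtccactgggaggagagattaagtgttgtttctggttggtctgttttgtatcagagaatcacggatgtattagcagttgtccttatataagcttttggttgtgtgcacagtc
Cyp2c68, chr19:39741102-39741351, minus strand: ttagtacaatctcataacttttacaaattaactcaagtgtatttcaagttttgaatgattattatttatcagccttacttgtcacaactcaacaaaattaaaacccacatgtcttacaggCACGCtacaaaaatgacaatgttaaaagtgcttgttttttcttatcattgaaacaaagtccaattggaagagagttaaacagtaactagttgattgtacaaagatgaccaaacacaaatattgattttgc
Cyp2c69, chr19:39886770-39887019, minus strand: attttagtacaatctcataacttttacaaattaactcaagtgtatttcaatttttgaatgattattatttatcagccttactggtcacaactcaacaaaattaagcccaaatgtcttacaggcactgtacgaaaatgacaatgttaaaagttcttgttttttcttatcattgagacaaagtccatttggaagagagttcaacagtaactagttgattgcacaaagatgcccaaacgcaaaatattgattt
Among these windows only that of Cyp2c68 held the letters, once, as CACGC. The Cyp2c68 and Cyp2c69 promoters were identical at 91.3% of aligned columns, Cyp2c40 and Cyp2c69 at 77.5% and Cyp2c65 and Cyp2c66 at 74.6%. Promoters from opposite sides of the cluster, the 3 plus-strand against the 4 minus-strand genes, matched at 45.9% to 52.4%. Within the plus-strand set Cyp2c55 and Cyp2c66 matched at 49.4% and Cyp2c55 and Cyp2c65 at 53.5%. Cyp2c67 and Cyp2c40 matched at 47.9%, but columns with a gap count as unlike. Their 250-base windows were offset, with 158 identical bases in 330 aligned columns and gaps in most of the other columns. The percentages thus understate the likeness of offset windows. Close sequence copies can also exchange reads, and how reads that fit several genes were counted is not given in the sources used here, so single Cyp2c values are uncertain to that extent.

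Cyp2c55, which oxidizes arachidonic and linoleic acid, was the most abundant member. Its level was 492 to 1247 FPKM (median 836) in sham, 144 to 1141 (477) in vehicle, 106 to 1510 (316) at 10 mpk, 144 to 529.6 (319.9) at 30 mpk and 265 to 853 (429.7) at 90 mpk. The groups overlapped widely, with the broadest spread at 10 mpk, where replicates 3 and 8, the mice with Hoxd13 near 0, had 1510 and 1094 FPKM. Vehicle did not pass the test against sham (log2 fold change -0.72, SE 0.31, adjusted p = 0.0781). Against sham Cyp2c55 fell at 30 mpk (-1.28, SE 0.22, adjusted p = 5.89e-05) and 90 mpk (-0.75, adjusted p = 0.0108), the latter a call lost with all 50 mice in 1 fit and without the mice with acinar transcripts (adjusted p up to 0.397). Against vehicle the log2 difference at 30 mpk was -0.56, SE 0.39, adjusted p = 0.285, with a 95% interval of -1.35 to 0.24. Its neighbours had like values: Cyp2c65 medians were 68.3 FPKM in sham, 40.03 in vehicle and 27.2 at 30 mpk, and those of Cyp2c66 were 2.1, 1.17 and 0.82. Both fell at 30 mpk against sham, Cyp2c65 with a log2 change of -1.02 (adjusted p = 0.0185) and Cyp2c66 with one of -1.35 (adjusted p = 0.00173). Neither passed the test against vehicle at any dose. The fall of Cyp2c65 in vehicle (-0.63, adjusted p = 0.0434) was lost in 6 of 14 alternative settings and in 14 of 20 refits that left out 1 mouse, with adjusted p up to 0.0824.

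Cyp2c68, a less characterized Cyp2c enzyme, was the most abundant gene of the minus-strand set. Its level was 39 to 63.7 FPKM (median 45.4) in sham, 4.45 to 38.2 (21.2) in vehicle, 13.2 to 68.7 (29.4) at 10 mpk, 32.4 to 65.8 (47.5) at 30 mpk and 27 to 50.4 (40.2) at 90 mpk. Vehicle mice all lay below sham, and the 30 mpk mice had about the range and median of sham. Cyp2c68 fell in vehicle (-1.17, SE 0.28, adjusted p = 0.00317) and rose against vehicle at 30 mpk (1.15, SE 0.26, adjusted p = 0.00126) and 90 mpk (0.87, adjusted p = 0.0177). Cyp2c69 showed the same order. Its level was 6.42 to 10.4 FPKM (median 7.61) in sham, 1.23 to 4.47 (2.16) in vehicle, 1.57 to 9.83 (5.24) at 10 mpk, 3.47 to 8.83 (7.7) at 30 mpk and 4.32 to 7.02 (5.41) at 90 mpk. Vehicle values were again wholly below sham, and 30 mpk replicate 1, one of the mice with low Xist, was apart from the rest of its group at 3.47 FPKM. Cyp2c69 fell in vehicle (-1.70, SE 0.19, adjusted p = 1.37e-06) and rose against vehicle at 10 mpk (1.07, adjusted p = 0.00647), 30 mpk (1.60, SE 0.23, adjusted p = 7.38e-06) and 90 mpk (1.11, adjusted p = 0.000588).

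Cyp2c40, which makes hydroxylated arachidonic acid, was 0.35 to 1.33 FPKM (median 0.965) in sham, 0.12 to 1.02 (0.415) in vehicle, 0.34 to 1.29 (0.58) at 10 mpk, 0.35 to 1.92 (1.23) at 30 mpk and 0.48 to 1.07 (0.82) at 90 mpk. It was low throughout, and its 30 mpk range, apart from replicate 7 at 0.35 FPKM, lay mostly above that of vehicle. Cyp2c40 fell in vehicle (-1.16, adjusted p = 0.00497) and rose at 30 mpk (1.59, SE 0.28, adjusted p = 8.33e-05) and 90 mpk (0.91, adjusted p = 0.0213) against vehicle. Cyp2c67, whose substrates are little known, was 1.95 to 3.53 FPKM (median 2.7) in sham, 0.3 to 3.15 (1.75) in vehicle, 1.15 to 5.97 (2.52) at 10 mpk, 2.8 to 5.9 (3.9) at 30 mpk and 2.28 to 4.75 (3.08) at 90 mpk. Its highest median was at 30 mpk and its lowest in vehicle, with overlap. Cyp2c67 rose against vehicle at 30 mpk (1.39, SE 0.27, adjusted p = 0.000194) and 90 mpk (1.03, adjusted p = 0.00552), and it was the only Cyp2c gene above sham at 30 mpk (0.63, adjusted p = 0.000318). Its fall in vehicle (-0.76, adjusted p = 0.0381) was lost in 3 of 14 alternative settings and in 9 of 20 refits without 1 mouse (adjusted p up to 0.0607). Without the mice with acinar transcripts other than Cela1 the 4 rises at 30 mpk were still called and the 4 at 90 mpk and that of Cyp2c69 at 10 mpk were not (adjusted p up to 0.182 for Cyp2c67, 0.43 for Cyp2c68, 0.444 for Cyp2c40 and 0.116 for Cyp2c69 at 90 mpk). None of the 7 Cyp2c genes passed the test between doses.

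**Figure D2:**
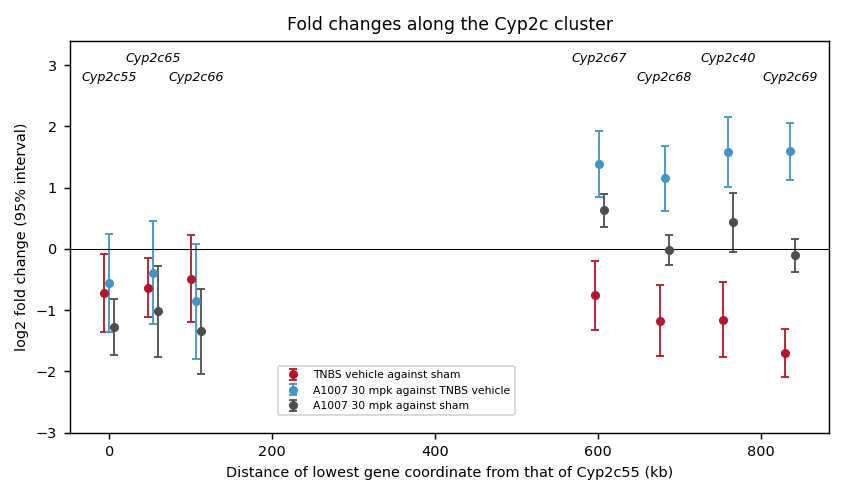
Log2 fold change with its 95% interval (vertical axis) for the 7 Cyp2c genes by the distance of each gene's lowest coordinate from that of Cyp2c55 in kb (horizontal axis), for vehicle against sham, 30 mpk against vehicle and 30 mpk against sham. Left of the gap the 30 mpk values are below 0 in both comparisons, and right of it all 4 genes are above 0 against vehicle and near 0 or above it against sham.

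**Figure D3:**
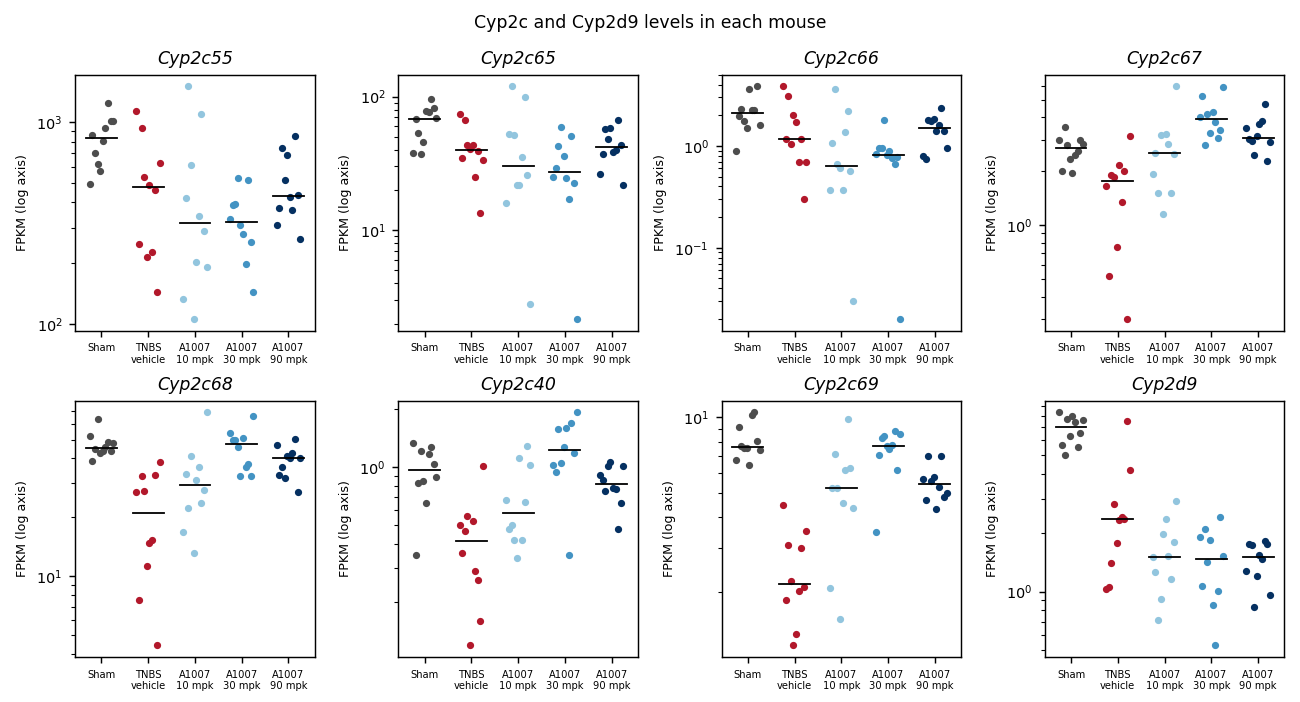
FPKM of the 7 Cyp2c genes and Cyp2d9 in each of 50 mice (log axes), 1 point per mouse and a line at the group median, with a value listed as 0 drawn at the bottom. Cyp2c68 and Cyp2c69 are lowest in vehicle and near sham at 30 mpk, and Cyp2d9 is lowest in the 3 dose groups. Cyp2c55 medians are below that of sham in all TNBS groups and Cyp2c65 medians in vehicle and at 30 mpk, with overlap.

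The level of Hoxd13, which rises toward the distal end of the hindgut, moved with some of these genes among mice of a group. At 30 mpk Cyp2c55 was lower where Hoxd13 was higher (Pearson r = -0.928, Spearman rho = -0.867 on log2(FPKM + 0.1), n = 10, permutation p = 0.00019 and 0.00253, adjusted over 20 relations 0.00076 and 0.00723), and r without the 2 mice farthest from the Hoxd13 median was -0.829. At 10 mpk r was -0.809 and rho -0.794 (adjusted permutation p = 0.0145 and 0.023, n = 10), but r was -0.36 without the 2 farthest mice, so the relation rests on them. At 90 mpk r was -0.65 and rho -0.745 (adjusted permutation p = 0.0767 and 0.04, n = 10), with r = -0.672 without the 2 farthest mice. In sham r was -0.437 and rho -0.273, and in vehicle r was 0.577 and rho 0.515, of the opposite sign, and neither group passed. Without the 2 farthest mice r was -0.514 in sham and 0.0471 in vehicle, so the vehicle value rests on those mice. For Cyp2c68 the sign in sham was positive (r = 0.881, rho = 0.915, adjusted permutation p = 0.00667 and 0.0025, n = 10), with r = 0.865 without the 2 farthest mice, and r lay between 0.235 and 0.687 in the TNBS groups. Without the 2 farthest mice it was 0.271 in vehicle, 0.486 at 10 mpk, -0.06 at 30 mpk and 0.676 at 90 mpk. The labels used here give no position along the colon for single mice, and its part in the group differences was not tested.

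The Cyp2d genes, whose human counterpart is a major drug oxidase, were lower than sham in colitis with or without A1007. All 7 members fell against sham in vehicle and at each of the 3 doses. In vehicle the falls of Cyp2d26 and Cyp2d34 were lost without the mice with acinar transcripts. That of Cyp2d26 was also lost with the replicate number as a block, and that of Cyp2d34 with no filter on low counts. At 10 mpk Cyp2d26, and at 90 mpk Cyp2d13, Cyp2d26 and Cyp2d34, were lost without those mice, Cela1 included, and with all 50 mice in 1 fit Cyp2d13 was lost at 30 and 90 mpk. Cyp2d9 was 5.02 to 8.3 FPKM (median 6.97) in sham, 1.03 to 7.51 (2.35) in vehicle, 0.71 to 2.93 (1.51) at 10 mpk, 0.53 to 2.42 (1.48) at 30 mpk and 0.83 to 1.82 (1.5) at 90 mpk. All mice of each dose group lay below all sham mice, and vehicle overlapped sham only through replicate 9, at 7.51 FPKM. Cyp2d9 fell in vehicle (-1.29, SE 0.31, adjusted p = 0.00337), and against vehicle it was lower at 30 mpk (-0.89, SE 0.30, adjusted p = 0.0223) and 90 mpk (-0.99, SE 0.30, adjusted p = 0.019). Without vehicle replicate 9 both of these calls were lost (adjusted p = 0.124 and 0.105). In alternative settings the call at 30 mpk was lost in 4 of 14 (adjusted p up to 0.21) and that at 90 mpk in 7 of 15 (adjusted p up to 0.442). Cyp2d12 had the largest fall of all members in vehicle (-2.07, SE 0.36, adjusted p = 0.00026), from 3.12 to 12.7 FPKM (median 8.62) in sham to 0.19 to 4.29 FPKM (median 1.66), and remained below sham at 30 mpk (-1.72) and 90 mpk (-1.64). Cyp2d13 fell in vehicle (-1.40, adjusted p = 0.000351) with no overlap and was the only Cyp2d gene that rose at 30 mpk against vehicle (0.80, adjusted p = 0.0327), a call lost without vehicle replicate 1, 2 or 5 or 30 mpk replicate 9 or 10 (adjusted p up to 0.0746). Cyp2d34, the most abundant of them, and Cyp2d26, both named after their values were seen, had medians of 70.9 and 26.8 FPKM in sham, 36.1 and 13.8 in vehicle and 42.3 and 14.8 at 90 mpk. These genes are close copies as well, so reads may be divided among them unevenly.

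Of the other Cyp2 members, Cyp2s1, an epithelial P450 that is a known AhR target, was 13 to 16.4 FPKM (median 13.7) in sham, 4.7 to 11.3 (8.59) in vehicle, 5.67 to 13.8 (9.58) at 10 mpk, 7.54 to 10.2 (9.04) at 30 mpk and 8.25 to 12 (10.1) at 90 mpk. All mice of the vehicle, 30 and 90 mpk groups lay below all sham mice, and the 10 mpk group overlapped sham. Cyp2s1 fell in vehicle (-0.84, SE 0.12, adjusted p = 3.53e-05) and stayed below sham at 30 mpk (-0.59, adjusted p = 2.5e-08) and 90 mpk (-0.48, adjusted p = 3.2e-06), and the log2 difference from vehicle was 0.24, 0.25 and 0.36 at the 3 doses, none of which passed. Cyp2j9, a P450 of the Cyp2j family, fell in vehicle (-0.49, adjusted p = 0.0114) and rose against vehicle at 10 mpk (0.48, adjusted p = 0.0244) and 90 mpk (0.44, adjusted p = 0.0143), where its medians were 1.76 and 1.7 FPKM against 1.12 in vehicle and 1.57 in sham. The call at 10 mpk was lost without 10 mpk replicate 7 (adjusted p = 0.0558), and both were lost without the mice with acinar transcripts. Cyp2f2, a P450 known from airway cells and named after its values were seen, fell in vehicle (-0.84, adjusted p = 0.0156) and rose at 30 mpk (0.65, adjusted p = 0.0317), a call lost without vehicle replicate 2, 5 or 7 or 30 mpk replicate 2, 3 or 6 (adjusted p up to 0.0734).

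In the Cyp3 family, which oxidizes the widest range of drugs, Cyp3a13 accounted for most of the signal. Its level was 16.2 to 31.1 FPKM (median 24.5) in sham, 5.69 to 20.2 (12.8) in vehicle, 4.61 to 27.9 (15) at 10 mpk, 8.67 to 16.5 (12.6) at 30 mpk and 10.7 to 23.1 (14) at 90 mpk. All TNBS groups had medians well below sham, with overlap, and no dose passed the test against vehicle. Cyp3a13 fell in vehicle (-0.88, SE 0.18, adjusted p = 0.000935) and was below sham at each dose, with log2 differences of -0.69, -0.92 and -0.65. The call at 10 mpk was lost with no filter on low counts and without the mice with acinar transcripts, Cela1 included (adjusted p up to 0.208), and that at 90 mpk without the latter (adjusted p = 0.218). Cyp3a25 and Cyp3a44 passed the test against sham only at 30 mpk, where their differences were -1.74 and -1.80 (adjusted p = 0.00515 and 0.000454).

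Cyp2e1, which oxidizes ethanol and small solvents and was singled out after its values were seen, varied widely among mice of each group. Its level was 0.3 to 228 FPKM (median 88.8) in sham, 4.88 to 223 (44.7) in vehicle, 3.11 to 123 (37.8) at 10 mpk, 1.4 to 89.3 (24.2) at 30 mpk and 0.62 to 78.9 (21.7) at 90 mpk. The ranges overlapped almost completely, and no comparison passed the test, the largest log2 difference being -1.81, SE 0.88, adjusted p = 0.1 at 90 mpk against sham. Its level moved with that of Adipoq, the adiponectin gene of fat cells, on log2(FPKM + 0.1). Pearson r was 0.992 in sham, 0.816 in vehicle, 0.946 at 10 mpk, 0.988 at 30 mpk and 0.986 at 90 mpk (n = 10 each, permutation p adjusted over 20 relations = 0.000133, 0.0141, 0.00065, 0.0001 and 0.0001), and Spearman rho was 0.952, 0.867, 0.903, 0.988 and 0.976. Without the 2 mice farthest from the Adipoq median r was 0.964, 0.736, 0.917, 0.982 and 0.965. None of the 8 listed adipocyte markers passed the test in vehicle against sham or at any dose against vehicle, while against sham 3 fell at 30 mpk and 5 at 90 mpk, where their median log2 difference was -1.88.

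**Figure D4:**
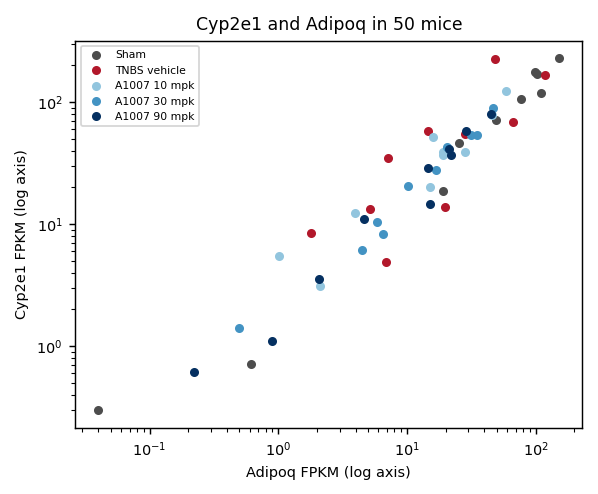
Cyp2e1 against Adipoq in FPKM for 50 mice (both axes logarithmic), 1 point per mouse, coloured by group. In all 5 groups the points run along a line, and r within a group is 0.816 to 0.992.

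All 3 Ugt1 members and 3 of the 4 Ugt2 members fell in vehicle, and the Ugt1 medians were lowest at 30 mpk. The 3 Ugt1 members are encoded by 1 locus on chromosome 1 with separate first exons and shared later exons, so reads in the shared part cannot be told apart between them and their values are uncertain. Ugt1a1, which conjugates bilirubin, was 10.5 to 28.8 FPKM (median 22.5) in sham, 2.9 to 14.6 (8.68) in vehicle, 1.62 to 24.9 (7.42) at 10 mpk, 0.72 to 9.72 (5.1) at 30 mpk and 5.26 to 16.2 (9.54) at 90 mpk. All 30 mpk mice lay below all sham mice, while vehicle and the other doses overlapped sham. Ugt1a1 fell in vehicle (-1.15, SE 0.22, adjusted p = 0.000476) and was below sham at 30 mpk (-1.85, SE 0.29, adjusted p = 2.95e-05) and 90 mpk (-0.97, adjusted p = 0.000969). The difference from vehicle at 30 mpk was -0.70 (95% interval -1.43 to 0.03, adjusted p = 0.133).

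Ugt1a6a, which conjugates phenols and is a textbook AhR target, was 1.71 to 3.58 FPKM (median 2.79) in sham, 0.21 to 2 (1.45) in vehicle, 0.14 to 2.96 (0.645) at 10 mpk, 0.37 to 1.11 (0.61) at 30 mpk and 0.91 to 2.43 (1.19) at 90 mpk. The 30 mpk values were again wholly below sham, and vehicle replicate 9 was far below its group at 0.21 FPKM. Ugt1a6a fell in vehicle (-0.99, SE 0.25, adjusted p = 0.00554) and at 30 mpk against sham (-1.98, SE 0.21, adjusted p = 1.1e-07). Against vehicle it fell at 30 mpk (-0.99, SE 0.36, adjusted p = 0.0343), a call lost in 3 of 14 alternative settings and in 8 of 20 refits without 1 mouse (adjusted p up to 0.0593). At 90 mpk the difference from vehicle was 0.00 and from 30 mpk 1.00 (adjusted p = 0.149), which did not pass the test. Among 30 mpk mice its relation to Hoxd13 had r = -0.613 and rho = -0.673 (adjusted permutation p = 0.0832 and 0.0698, n = 10). At 10 mpk r was -0.704 and rho -0.576 (adjusted permutation p = 0.0224 and 0.148), but r was -0.236 without the 2 farthest mice. In the other groups r was 0.625 in vehicle, of the opposite sign, -0.427 in sham and -0.187 at 90 mpk, with rho of 0.358, -0.31 and -0.152, and none passed. Without the 2 farthest mice r in these 3 groups was 0.259, -0.607 and 0.154. Ugt1a7c, the most abundant Ugt1 member, had medians of 32.6 FPKM in sham, 20.2 in vehicle and 13.4 at 30 mpk. It fell in vehicle (-0.58, adjusted p = 0.0109) and at 30 mpk against sham (-1.15, adjusted p = 2.44e-06), with no overlap between 30 mpk and sham, and the fall in vehicle was lost without the mice with acinar transcripts (adjusted p up to 0.0686).
The RefSeq promoter of Ugt1a6a is shown since this gene is the usual AhR reporter among the members, and in the 250 bases shown neither strand held GCGTG.
Ugt1a6a, chr1:88134559-88134808, plus strand: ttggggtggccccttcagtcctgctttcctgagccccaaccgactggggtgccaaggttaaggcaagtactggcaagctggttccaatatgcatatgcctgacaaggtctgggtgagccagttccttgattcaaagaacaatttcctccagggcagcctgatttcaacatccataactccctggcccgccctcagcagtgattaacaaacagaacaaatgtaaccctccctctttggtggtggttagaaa

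Ugt2b34, the most abundant glucuronosyltransferase, acts on steroids and drugs. Its level was 149 to 207 FPKM (median 190.1) in sham, 37.1 to 133 (99.3) in vehicle, 60.3 to 163 (110.2) at 10 mpk, 89 to 142 (109) at 30 mpk and 103 to 157 (123) at 90 mpk. Vehicle and 30 mpk mice all lay below sham, and the 90 mpk group was between vehicle and sham. It fell in vehicle (-0.98, SE 0.16, adjusted p = 0.000146) and remained below sham at 30 mpk (-0.67, adjusted p = 9.39e-07) and 90 mpk (-0.56, adjusted p = 9.05e-06), and its differences from vehicle were 0.21, 0.31 and 0.42 with adjusted p = 0.476, 0.163 and 0.086. Ugt2b35, named after its values were seen, lay below sham in every mouse of each TNBS group and fell in vehicle (-0.73, adjusted p = 4.47e-05). Ugt2b5 ranged from 0.22 to 34.5 FPKM at 10 mpk, the lowest value belonging to the mouse with high Hoxd13 and the highest to one with Hoxd13 near 0. Its fall in vehicle (-0.63, adjusted p = 0.0259) was lost in 5 of 14 alternative settings, among them the one without mice with acinar transcripts.

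Of the 7 sulfotransferase genes 4 fell in vehicle, and 2 of these rose at 30 and 90 mpk against vehicle. Sult1a1, which sulfates phenols, was the most abundant sulfotransferase. Its level was 201 to 261 FPKM (median 219) in sham, 82.3 to 240.1 (129.6) in vehicle, 48.3 to 237 (164) at 10 mpk, 53.5 to 244 (173) at 30 mpk and 156 to 212 (179.7) at 90 mpk. Vehicle values were mostly below sham, and the lowest values at 10 and 30 mpk were those of the replicates 10 with high Hoxd13. Sult1a1 fell in vehicle (-0.65, SE 0.15, adjusted p = 0.00236), and no dose passed against vehicle (0.16, 0.24 and 0.32). Sult1c2, which acts on phenols in stomach, kidney and gut, was 25.2 to 39.96 FPKM (median 32.6) in sham, 7.92 to 20.3 (15.8) in vehicle, 8.57 to 39.3 (23.5) at 10 mpk, 9.54 to 31.7 (23.5) at 30 mpk and 20.3 to 28.3 (26) at 90 mpk. All vehicle mice lay below all sham mice, and the dose groups overlapped both. It fell in vehicle (-1.09, SE 0.12, adjusted p = 1.74e-06) and rose against vehicle at 30 mpk (0.60, SE 0.19, adjusted p = 0.0132) and 90 mpk (0.71, SE 0.19, adjusted p = 0.00684), 2 calls that were lost without the mice with acinar transcripts other than Cela1 (adjusted p = 0.163 at 30 mpk and up to 0.185 at 90 mpk). Sult2b1, which sulfates cholesterol and was named after its values were seen, fell in vehicle (-0.55, adjusted p = 0.00149) and rose at 30 mpk (0.55, adjusted p = 0.000531) and 90 mpk (0.50, adjusted p = 0.0021), the latter a call lost without the mice with acinar transcripts. Sult1d1, known to sulfate catecholamines, had medians of 175 FPKM in sham and 114 in vehicle. Its fall (-0.49, adjusted p = 0.0446) was lost in 4 of 14 alternative settings and in 12 of 20 refits without 1 mouse (adjusted p up to 0.0806).

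Sult5a1, a sulfotransferase of unclear substrate, was one of the 2 members that rose in vehicle. It was listed at 0.02 to 0.13 FPKM (median 0.085) in sham and 0.07 to 0.61 FPKM (median 0.13) in vehicle, which is a low level in both. The rise (1.35, SE 0.39, adjusted p = 0.0125) was lost without the mice with acinar transcripts, as was that of Gstp3 (0.98, SE 0.26, adjusted p = 0.00607), the other member that rose. Gstp3, a pi-class copy near Gstp1, was 2.2 to 4.6 FPKM (median 2.83) in sham and 2.51 to 11.5 FPKM (median 5.5) in vehicle. The part of the acinar transcripts in these rises was not tested further. Gstp3 was lower at 90 mpk than in vehicle (-0.85, adjusted p = 0.0428), a call lost in 8 of 15 alternative settings and in 12 of 20 refits without 1 mouse (adjusted p up to 0.12).

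Of the 20 glutathione S-transferase genes 4 fell (Gstm1, Gstm2, Gsto1 and Gstt1) and Gstp3 rose in vehicle against sham, and 9 rose at 30 mpk against vehicle. The fall of Gstm2 was lost in 2 of 14 alternative settings and in 15 of 20 refits without 1 mouse (adjusted p up to 0.08), and that of Gsto1 without sham replicate 6, 7 or 8 or vehicle replicate 3, 4 or 8 (adjusted p up to 0.0588). Gstm1, the main mu-class enzyme, was 102 to 138 FPKM (median 112) in sham, 45.9 to 99.1 (71.8) in vehicle, 62.8 to 125 (92.4) at 10 mpk, 98.1 to 147 (129.8) at 30 mpk and 98.2 to 127 (111) at 90 mpk. Vehicle lay wholly below sham, and the 30 mpk median was the highest of the 5 groups. Gstm1 fell in vehicle (-0.66, SE 0.13, adjusted p = 0.000521), rose against vehicle at 30 mpk (0.78, SE 0.12, adjusted p = 1.26e-05) and 90 mpk (0.58, SE 0.12, adjusted p = 0.000555), and was higher at 30 than at 10 mpk (0.44, adjusted p = 0.0422). Gstm5 was 17.7 to 20.2 FPKM (median 18.9) in sham, 12.1 to 28.9 (20.2) in vehicle, 17.2 to 34.4 (20.4) at 10 mpk, 23 to 31.5 (26.8) at 30 mpk and 15.4 to 26.6 (21.5) at 90 mpk. It was the one member with all 30 mpk mice above all sham mice, a separation found upward in 5.08% of all genes. Gstm5 rose at 30 mpk against sham (0.55, SE 0.06, adjusted p = 4.03e-08) and against vehicle (0.42, SE 0.13, adjusted p = 0.0124), and in vehicle its difference from sham was 0.13 (adjusted p = 0.396).
Its RefSeq promoter is shown because it was the one member promoter that held both motifs searched, 2 copies of GCGTG and 1 of TGACNNNGC, the core of the antioxidant response element bound by NRF2, one of the GCGTG copies lying inside the latter. Capitals mark both.
Gstm5, chr3:107895604-107895853, plus strand: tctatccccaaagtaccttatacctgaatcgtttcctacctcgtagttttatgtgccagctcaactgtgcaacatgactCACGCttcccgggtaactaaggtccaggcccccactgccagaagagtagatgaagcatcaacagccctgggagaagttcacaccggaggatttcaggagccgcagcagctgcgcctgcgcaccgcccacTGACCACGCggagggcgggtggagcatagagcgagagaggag

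Gsta4, which detoxifies lipid peroxidation products, was 56.2 to 72.3 FPKM (median 65.6) in sham, 39.4 to 69.97 (54.6) in vehicle, 41.9 to 87.9 (59) at 10 mpk, 60.2 to 83.6 (74.9) at 30 mpk and 53.5 to 77.9 (62.2) at 90 mpk. The groups overlapped, with the highest median at 30 mpk. It rose at 30 mpk against vehicle (0.46, SE 0.10, adjusted p = 0.00086) and against sham (0.23, adjusted p = 0.00179). Gstm6 and Gstt3, with lower levels (medians of 3.8 and 13.3 FPKM at 30 mpk), rose against vehicle with log2 changes of 0.45 and 0.31, and against 10 mpk with changes of 0.55 and 0.31 (adjusted p = 0.0389 and 0.0412). Gstt1, a theta-class enzyme that acts on small halogenated compounds, fell in vehicle (-0.34, adjusted p = 0.0176) and was the one Gst gene that rose against vehicle at all 3 doses (0.35, 0.50 and 0.36). The Gstt1 calls in vehicle and at 10 and 90 mpk were lost without the mice with acinar transcripts, and that at 10 mpk in 10 of 20 refits without 1 mouse (adjusted p up to 0.0869). Gsto1 and Gsto2, the omega-class reductases, rose at 30 mpk against vehicle with log2 changes of 0.28 and 0.80. Gstk1, a mitochondrial and peroxisomal enzyme, fell at 90 mpk against vehicle (-0.57, adjusted p = 0.00767), from 19.3 to 38 FPKM (median 28) to 14.9 to 23.9 FPKM (median 20.3), a call lost without the mice with acinar transcripts (adjusted p up to 0.342). Gstp1, the most abundant pi-class gene, had medians from 73.8 FPKM in sham to 83.1 at 30 mpk and passed no test. In all, 6 members passed no test in any comparison: Cyp2e1, Cyp2u1, Gsta2, Gstm4, Gstm7 and Gstp1, some of which were named after their values were seen.

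**Figure D5:**
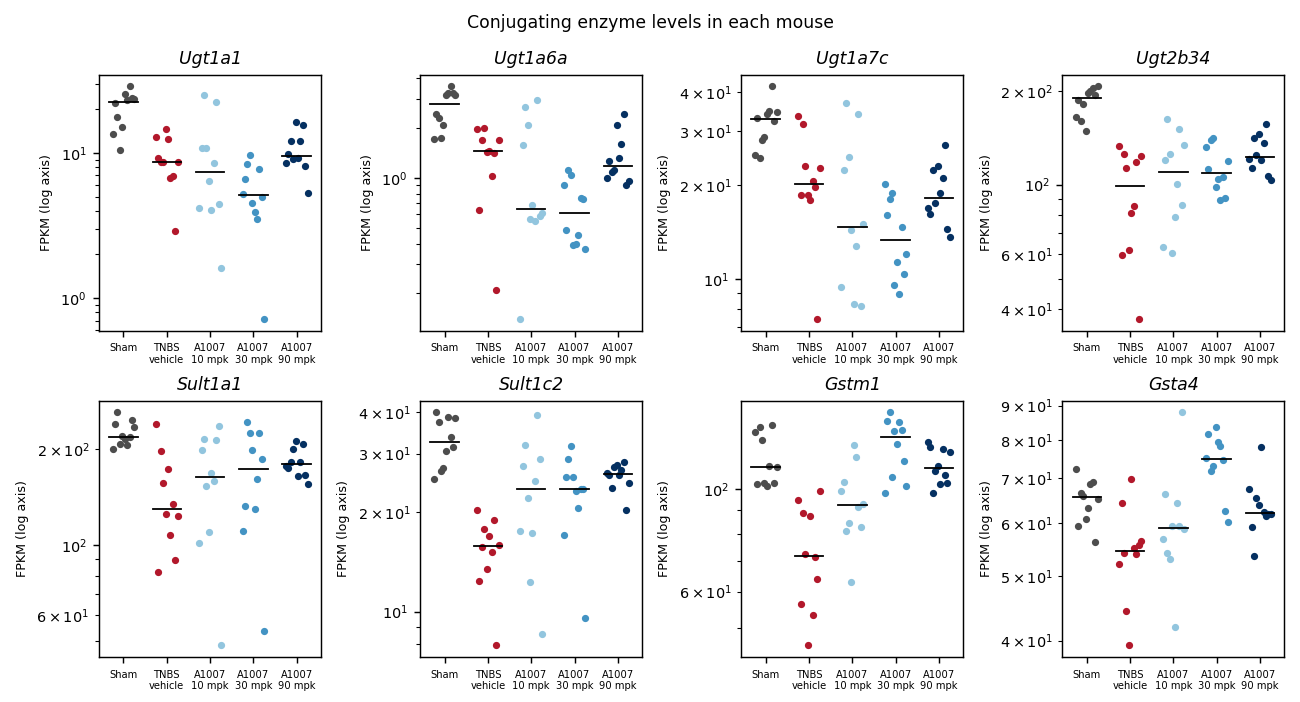
FPKM of Ugt1a1, Ugt1a6a, Ugt1a7c, Ugt2b34, Sult1a1, Sult1c2, Gstm1 and Gsta4 in each of 50 mice (log axes), 1 point per mouse and a line at the group median. The Ugt1a medians are lowest at 30 mpk, while those of Gstm1 and Gsta4 are highest at 30 mpk.

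Few members passed the test between doses. Between 30 and 10 mpk 3 members were called, Gstm1, Gstm6 and Gstt3, all higher at 30 mpk, with 1.78% of all genes called (0.429% higher, 1.35% lower). This count was 7 with DESeq2 (796 of 17928 genes) and 0 to 6 when 1 mouse was left out, and each of the 3 calls was lost in 12 to 15 of 20 such refits. Between 90 and 10 mpk edgeR called none of the 58 (0.106% of all genes, 0.0335% higher and 0.0725% lower) and 6 had an unadjusted p under 0.05. Between 90 and 30 mpk it called none (0.351% of all genes, 0.0781% higher and 0.273% lower) and 10 had an unadjusted p under 0.05. DESeq2 called none of the members in either comparison. Of all 17928 genes it called 181 between 90 and 10 mpk and 224 between 90 and 30 mpk. The 90 against 30 mpk count depended on the model: with only these 2 groups in the edgeR fit 11 members were called (3064 of 17928 genes), among them Cyp2c40, Cyp2c69, Gstm5, Ugt1a1 and Ugt1a6a, and limma with library weights also called 11 (4347 genes).

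The members were also grouped by the regulator they are known for. For the counts that follow, 13.3% of all tested genes fell in vehicle against sham. Against vehicle 2.73%, 13.3% and 6.91% of all genes rose at 10, 30 and 90 mpk. At 30 mpk 18.1% fell against vehicle and 27.7% against sham. The lists are short, and whether their counts differ from these shares was not tested. Of 6 genes known as AhR targets in liver or gut 5 were tested: Ugt1a6a, Ugt1a7c, Cyp2s1, Gsta1 and Gsta2, while Ugt1a6b, with 208 counts, was below the threshold. In vehicle 3 of them fell against sham, none rose against vehicle at any dose, and 1 (Ugt1a6a) fell at 30 mpk. Gsta1, an alpha-class enzyme at a low level (2.02 FPKM at the sham median and 0.71 at 90 mpk), fell against sham at 90 mpk (-1.56, adjusted p = 0.00351), a call lost with library weights and without the mice with acinar transcripts, Cela1 included (adjusted p up to 0.128). Their medians of log2 differences from vehicle were -0.11 at 10 mpk, 0.19 at 30 mpk and 0.00 at 90 mpk. Of 11 members known as NRF2 targets 4 fell in vehicle (Gstm1, Gstm2, Ugt1a6a and Ugt2b5), 4 rose (Gsta4, Gstm1, Gstm2 and Gstm5) and 1 fell (Ugt1a6a) at 30 mpk against vehicle, and 1 rose at 90 mpk (Gstm1). Of 13 genes linked to PXR or CAR 9 were tested, 5 of which fell in vehicle (Cyp2c65, Cyp3a13, Gstm2, Sult1d1 and Ugt1a1). At 30 mpk 7 of the 9 fell against sham, and against vehicle 1 rose (Gstm2). The lists were chosen with results of these data known.

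The GCGTG letters stood in the 250-base promoters of 11 of 50 matched members (22%) and of 28.2% of all 32851 RefSeq promoters of that length. TGACNNNGC stood in 3 of 50 (6.0%: Gsta3, Gstm5 and Gstm7) and in 10.2% of all promoters. The other 8 members were not matched. A match describes letters in this window only.

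Other genes of the pathway gave the setting. Of 15 sensors and regulators 1 rose and 9 fell in vehicle: Ahr rose (0.19, adjusted p = 0.00559), while Nfe2l2 (-0.41, adjusted p = 0.000187) and Nr1i2 (-0.40, adjusted p = 0.0035) fell. Against vehicle 1 rose and 4 fell at 30 mpk, and 1 rose and 1 fell at 90 mpk. Of 33 other phase I enzymes tested 3 rose and 17 fell in vehicle, and at 30 mpk 6 rose and 2 fell. Cyp1b1, an AhR target that fibroblasts and other stromal cells also make, rose in vehicle (4.55, SE 0.88, adjusted p = 0.000654) and fell at 30 mpk against vehicle (-3.98, SE 0.64, adjusted p = 2.49e-05). Cyp1a1, the usual AhR reporter and named after its values were seen, had medians of 0.35 FPKM in sham, 0.19 in vehicle and 0.33 at 30 mpk and passed no test, with a log2 difference from vehicle of 0.42 at 30 mpk (adjusted p = 0.431). In the same comparisons 9 of 10 fibroblast markers rose in vehicle, and 7 fell and 1 rose at 30 mpk, with summed levels of 221.0 to 363.8 FPKM in sham, 616.8 to 1274 in vehicle and 382.1 to 700.0 at 30 mpk, and their part in the Cyp1b1 values was not tested. Tiparp, another AhR target, fell at 30 mpk (-0.55, adjusted p = 0.00631) and 90 mpk (-0.59, adjusted p = 0.00573) against vehicle. Of 22 other conjugation and cofactor genes 1 rose and 10 fell in vehicle, and of 18 transporters 4 rose and 5 fell, with Abcb1a down (-1.36, adjusted p = 0.000193) and Abcb1b up (1.58, adjusted p = 0.000356). At 30 mpk 8 transporters were lower and none higher than in vehicle.

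Cell markers moved beside the members. Of 16 absorptive colonocyte genes 7 fell and none rose in vehicle, and their summed level was 4881 to 7352 FPKM in sham, 2722 to 6333 in vehicle and 2718 to 5465 at 30 mpk. Of 12 general epithelial genes 1 fell in vehicle and 6 rose at 30 mpk against vehicle, with sums of 4928 to 5840 FPKM in sham, 4158 to 6107 in vehicle and 5682 to 6716 at 30 mpk. All 10 neutrophil genes rose in vehicle, from sums of 3.01 to 12.06 FPKM to 29.75 to 7371, and all 10 fell at 30 mpk, to 10.97 to 50.66. Of 12 macrophage genes 11 rose and 1 fell in vehicle. All 14 acinar genes tested rose in vehicle, with sums of 18.82 to 47.24 FPKM in sham and 26.85 to 50620.0 in vehicle, where the median was 39.52. The part of cell composition in the members' changes was not tested. Alb, the main plasma protein of hepatocytes, was at 0.18 to 3.67 FPKM over all 50 mice. Of 9 hepatocyte genes tested 2 rose and 1 fell in vehicle against sham. The 12 listed summed to 26.9 to 102.3 FPKM in sham and 47.08 to 939.8 in vehicle, where the median was 108.9.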

How the data were processed

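RNA-seq of colon tissue from 50 mice was deposited as 1 table of 56691 genes with counts and FPKM per mouse. Per the labels, RNA was extracted with TRIzol and captured with oligo(dT) beads. Per the submitters' processing notes, the processing used GRCm39, DESeq2, HTSeq 0.6.1, HISAT2 2.2.1 and cutadapt 1.9.1. What each tool did, its strand setting and its treatment of multi-mapped reads were not given in the sources used here. Deposited counts are whole reads per gene, not normalized. The deposited FPKM values divide by library total and gene length. FPKM recomputed from the counts was within 1% for 99.997% of values with at least 500 counts.

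Counts were tested with edgeR 4.0.16 (quasi-likelihood, TMM, robust; R 4.3.3) after a filter (filterByExpr, minimum count 10; 17928 genes). Comparisons with sham used the 20 mice of the pair, and those among TNBS groups the 40 TNBS mice. p-values were adjusted over all genes tested by Benjamini-Hochberg, with a threshold of 0.05. Log2 fold changes are edgeR's, and SE is the standard error. FPKM gave levels. Relations used 100000 permutations. Alternatives used DESeq2 1.42.0, limma 3.58.1, other normalization and filters, and left out mice. The code was tested on simulated data. Where nothing says that mice came from separate litters or cages, p-values measure the spread between these mice.

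Genes named are the highest member of each family, the members with the 6 largest rises and 6 largest falls among those called in each comparison with vehicle or sham, those called between doses, and those linked to AhR, NRF2, PXR or CAR. Others are said to be chosen after their values were seen. The members and lists were chosen with earlier results of these data known.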

Additional observations from a re-analysis of the deposited data

Results flagged for a closer look

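Single mice lay far from the other 9 of their group in 22 of 210 gene and group combinations of the named members (Dixon's test of the gap on log2 FPKM; groups with a value of 0 were not tested). Chance flags about 1 in 20 such groups. Replicate 10 of the 30 mpk group, where Hoxd13 was high, was the lowest for Cyp2c65 (2.17 FPKM), Gstk1 (12.26), Sult1a1 (53.45), Sult1c2 (9.54), Ugt1a1 (0.72) and Ugt2b5 (0.22). Replicate 10 of the 10 mpk group, also with high Hoxd13, was the lowest for Cyp2c66 (0.03 FPKM), Gstk1 (11.23), Sult1a1 (48.34) and Ugt2b5 (0.22). Vehicle replicate 9, one of the mice with acinar transcripts, was the lowest for Sult1c2 (7.92 FPKM), Ugt1a1 (2.90), Ugt1a6a (0.21) and Ugt1a7c (7.42). Vehicle replicate 5, another of those mice, was the lowest for Gstm5 (12.12 FPKM) and Gstm6 (1.41). The other lowest values were those of Cyp2c40 in 30 mpk replicate 7 (0.35 FPKM), Cyp2c69 in 30 mpk replicate 1 (3.47), Gstm6 in sham replicate 2 (2.43), Gstt1 in 10 mpk replicate 5 (7.98) and Sult5a1 in 90 mpk replicate 8 (0.03). The one high value was that of Gstm3 in 90 mpk replicate 5, at 3.84 FPKM. What set these mice apart was not tested.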

How the results depend on the processing

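No named member that was called turned its direction under any alternative, and 1584 of 1783 values for called members stayed past the threshold. Without 1 mouse, counts of members called stayed within 1.5 times of the reported ones in the comparisons named next. Vehicle against sham gave 27 to 37, 30 mpk against vehicle 17 to 22 and 90 mpk against vehicle 11 to 15. Against sham, 10 mpk gave 21 to 34, 30 mpk 30 to 33 and 90 mpk 29 to 35. Counts moved by over 1.5 times in the cases that follow. Beside each stands the number of all genes called in that setting, of 17928, or of 38081 with no filter on low counts. All-gene counts without 1 mouse are not given here. For 10 mpk against vehicle, 3 in the reported fit (1038 genes), the count was 8 with DESeq2 (1448 genes) and 1 with no filter (537 genes). It was 0 with only the 2 groups compared (8 genes) and 7 with all 50 mice in 1 fit (1749 genes). Without the mice over 100 CPM of acinar transcripts it was 0 (0 genes), and without those over it apart from Cela1 0 (33 genes). Without the mice with low or high Hoxd13 it was 7 (1562 genes). Without 1 mouse it was 1 (10 mpk replicate 7) to 8 (10 mpk replicate 5), with 5 without 10 mpk replicate 10 and 7 without vehicle replicate 1 or 10. For 90 mpk against vehicle it was 0 and 1 without the 2 sets of acinar mice (171 and 577 genes). For 90 mpk against sham it was 14 without the first set (4504 genes) and 16 with all 50 mice (4399 genes). For 30 against 10 mpk, 3 as reported (319 genes), the count was 7 with DESeq2 (796 genes) and 0 with no filter (119 genes). It was 6 with quantile normalization and limma (394 genes). Limma on log2 FPKM at pseudocounts of 0.1 and 0.5 gave 0 and 1 (293 and 314 genes), and library weights 14 (3986 genes). It was 7 with all 50 mice (869 genes) and 5 without the mice with low Xist (826 genes). Without those with low Hoxd13 it was 0 (117 genes), and without those with low or high Hoxd13 0 (110 genes). Without those with acinar transcripts other than Cela1 it was 5 (966 genes). Without 1 mouse this count was 0 to 6: it was 0 without 10 mpk replicate 1, 3, 4 or 8 or 30 mpk replicate 2, 3, 4, 5 or 8, 1 without 10 mpk replicate 2 or 5 or 30 mpk replicate 6 or 7, and 6 without 10 mpk replicate 9. For 90 against 10 mpk it was 2 without the mice with low Hoxd13 (101 genes). For 90 against 30 mpk it was 11 with library weights (4347 genes), 11 with only the 2 groups (3064 genes) and 1 with all 50 mice (437 genes). Both counts stayed at 0 without any 1 mouse. The cause of these shifts was not tested. Leaving out mice over 100 CPM of all acinar genes, Cela1 included, removed the whole 30 mpk group, so comparisons with 30 mpk were not run under it. It also removed 10 mpk replicates 1, 6, 7, 8, 9 and 10, 90 mpk replicates 1, 2, 4, 6, 7 and 10 and vehicle replicates 2, 5, 6 and 9. The part of the smaller groups in calls lost under either acinar setting was not tested. The set apart from Cela1 was chosen after seeing the data, as was leaving out mice with low or high Hoxd13.

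Replicate numbers did not pair the mice: between 2 groups 0 to 6 of 10 same-numbered pairs correlated above 0.1, and 0 to 3 of 10 mice correlated best with their own number. With the replicate number as a block, 27 members were called in vehicle against sham (4384 of 17928 genes). At the 3 doses against vehicle 3, 23 and 14 members were called (936, 6032 and 3231 genes). Against sham 30, 32 and 33 were called (5851, 10201 and 7193 genes). Between 30 and 10 mpk 5 were called (471 genes). Between 90 and 30 mpk 1 was called, and the all-gene count for this comparison is not given here.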
